A study of Mus musculus with 6 samples.

Results

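The genes described here encode the motile machinery of the sperm tail: the dynein arms, the radial spokes, and the proteins named for cilia and flagella. They were chosen by name, as the symbols that begin with Dnah, Dnaic, Dnai, Dnal, Dnaaf, Rsph, Cfap or Drc followed by a digit, together with Dnali1 and Hydin. Antisense names ending in "os" were to be left out, and 0 such names were found. The rule gave 68 genes of the 25165 gene symbols measured, and each of the 68 stood on 1 row of each table. They lie on 18 chromosomes, with 1 on the X chromosome (Cfap47) and 0 on the Y chromosome.

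The study took away Teshl, a long non-coding RNA whose RefSeq transcript is NR_038002 and which is made in mouse testis, and asked about the sex of offspring and Y-linked multicopy genes. RNA of whole testis from C57BL/6 males aged 8 weeks was sequenced in 3 libraries titled KO and 3 libraries titled WT. The genotype field goes against the titles in all 6 libraries: it gives wild type for those titled KO, and loss of both copies of NR_038002 for those titled WT. Groups were taken from the titles, and each difference is titled KO minus titled WT. The loss is of the whole animal as far as the labels say. They do not tell if each library is a separate animal, and the spread on which p-values rest may then be technical.

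The targeted gene, 1700027A15Rik, had 0.385 FPKM in titled KO replicate 1 and was listed at 0 in titled KO replicates 2 and 3, against 1028, 989 and 1081 FPKM in the libraries titled WT. FPKM are fragment numbers divided by transcript length and library depth. This gene's values fit the titles, not the genotype field. Depth, read from the spacing of low values, was 32000000 to 39400000 fragments in libraries titled KO and 27500000 to 32000000 in those titled WT, so that 3 fragments on a 1 kb transcript equal 0.0762 to 0.109 FPKM. These floors reflect counting error alone. The testis label was checked against cell type markers. Elongating spermatid markers summed to 35975 to 38193 FPKM in libraries titled KO and 30718 to 34712 FPKM in those titled WT, while 7 of 10 epididymal markers stayed under 1 FPKM in every library, with Cst8 at 226 to 287 FPKM over the 6 libraries the highest of the others. In whole testis, fewer cells of a type and less RNA per cell cannot be told apart.

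The axoneme is the microtubule core of a cilium or flagellum, a ring of doublet microtubules around a central pair. Dynein arms fixed to a doublet walk along the next and make the doublets slide, and the nexin-dynein regulatory complex and the radial spokes turn that sliding into bending by linking doublets to one another and to the central apparatus. Dynein arms are put together in the cytoplasm by assembly factors before they enter the axoneme. In the testis the axoneme is built by round and elongating spermatids, and loss of single members in mice or men is a known cause of immotile or malformed sperm tails. Some parts have a sperm form and a form of airway or oviduct cilia, encoded by different genes.

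How alike some members are bears on their values, so the sequences of near copies come first, followed by letters at start sites. The 3 Dnah7 genes, inner arm heavy chains of mouse chromosome 1, were 97.0% (Dnah7a and Dnah7b), 96.8% (Dnah7a and Dnah7c) and 97.3% (Dnah7b and Dnah7c) identical over their aligned coding sequence. Rsph3a and Rsph3b, both for the spoke stalk protein, were 99.2% identical. Stretches of 60 coding bases from GENCODE M21 (GRCm38, the same assembly as mm10), 5′ to 3′ on the gene's strand, show bases by which the copies can be told apart. Each is the first gapless stretch with 3 or more differing positions, so it holds more differences than most of the sequence: 5 of the 13 bases that differ between Rsph3a and Rsph3b over 1548 aligned bases lie in the stretch shown. Capitals mark bases that differ among the copies shown. The values of these 5 genes are uncertain where the authors' counting could split or share reads. Among the 65 members with a GENCODE transcript, no other had a copy of at least 90% identity over at least 50% of its transcript. Cfap47, Cfap410 and Dnaaf4 had no such transcript and were not searched.
Rsph3a: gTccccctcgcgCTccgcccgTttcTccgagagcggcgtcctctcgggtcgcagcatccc
Rsph3b: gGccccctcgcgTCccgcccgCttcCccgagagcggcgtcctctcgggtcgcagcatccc
Dnah7a: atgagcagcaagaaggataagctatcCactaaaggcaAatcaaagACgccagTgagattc
Dnah7b: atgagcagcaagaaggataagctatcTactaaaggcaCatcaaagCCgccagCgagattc
Dnah7c: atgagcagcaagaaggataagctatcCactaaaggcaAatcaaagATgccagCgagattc

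RFX factors bind near the start sites of many cilia genes, and Rfx2 is known to act on them in spermatids. RefSeq promoters (GRCm38.p6, 250 bases before and 50 after the start site) matched 57 of the 68 members. The letters GTTGCC, a short form of the RFX site, stood on either strand in 36.8% of these 57 (21 genes), in 16.5% of 10386 tested genes with a promoter and in 14.1% of all 27025 genes with a promoter. A spaced form, GTNNCC followed after 3 bases by GNNAC, stood in 26.3% of the members (15 genes), in 7.20% of tested genes and in 5.26% of all genes. A given stretch can match both spellings. A gene was counted when any of its annotated start site windows matched, and the number of windows per gene was not matched between the sets. The 3 near copies Dnah7a, Dnah7b and Dnah7c, all with GTTGCC, were counted as separate genes. The letters TGACGT, from the cAMP response element, to which the spermatid factor Crem binds, stood in 3.51% of the members (2 genes), 12.9% of tested genes and 8.37% of all genes. These spellings were chosen after several had been counted, and a match is a description of letters, not of a bound site.

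Promoters of 4 members with the spaced form are shown because these genes stand out below by level (Cfap206, Cfap298) or by the size of their difference (Cfap126, Dnah2). Whether a match bears on level or on a difference was not tested. Each is 5′ to 3′ on the gene's strand, with the match in capitals. Cfap126 is at chr1:171122795-171123094 (plus strand), the third of 3 annotated start sites, and its other 2 windows held no match. Cfap206 is at chr4:34730157-34730456, Dnah2 at chr11:69549059-69549358 and Cfap298 at chr16:90934800-90935099, all on the minus strand. The match begins 82 bases before the start site in Cfap126, 23 in Cfap206, 86 in Dnah2 and 188 in Cfap298.
Cfap126: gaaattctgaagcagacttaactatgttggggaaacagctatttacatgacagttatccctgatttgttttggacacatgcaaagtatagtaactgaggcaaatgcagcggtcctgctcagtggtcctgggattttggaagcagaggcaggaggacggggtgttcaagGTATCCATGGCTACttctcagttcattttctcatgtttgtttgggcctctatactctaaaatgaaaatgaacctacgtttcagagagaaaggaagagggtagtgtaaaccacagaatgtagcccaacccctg
Cfap206: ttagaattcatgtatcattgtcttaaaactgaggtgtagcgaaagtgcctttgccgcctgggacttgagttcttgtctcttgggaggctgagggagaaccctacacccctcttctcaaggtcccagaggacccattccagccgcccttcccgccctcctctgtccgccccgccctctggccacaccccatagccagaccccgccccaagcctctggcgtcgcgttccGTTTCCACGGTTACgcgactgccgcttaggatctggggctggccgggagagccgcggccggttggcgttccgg
Dnah2: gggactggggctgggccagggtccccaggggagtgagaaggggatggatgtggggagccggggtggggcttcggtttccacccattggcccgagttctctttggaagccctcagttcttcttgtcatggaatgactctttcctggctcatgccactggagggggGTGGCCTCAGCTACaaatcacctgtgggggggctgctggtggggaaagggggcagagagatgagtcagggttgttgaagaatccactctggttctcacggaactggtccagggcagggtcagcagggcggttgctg
Cfap298: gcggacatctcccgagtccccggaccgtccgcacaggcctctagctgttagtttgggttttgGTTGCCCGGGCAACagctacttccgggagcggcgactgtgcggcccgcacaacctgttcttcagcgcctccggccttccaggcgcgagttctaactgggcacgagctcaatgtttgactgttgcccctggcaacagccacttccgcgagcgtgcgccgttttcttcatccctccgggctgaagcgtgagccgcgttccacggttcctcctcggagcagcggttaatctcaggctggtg

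A look at the levels shows how differently the members are expressed within a single structure. The mean over all 6 libraries was 100 FPKM or more for 10 members, 10 to 100 for 41, 1 to 10 for 11, and under 1 for 6. A gene entered the test when it averaged 1 FPKM or more in either group, which 62 members did. The median of these 62 was 32.6 FPKM, against 7.46 FPKM over all 12952 tested genes, and 58 of the 62 (93.5%) lay above 7.46 FPKM. FPKM are scaled to length, so levels of different genes can be set side by side. Longer members were lower even so: Spearman's rho between the longest annotated transcript and mean FPKM was -0.56 over 59 tested members that had a length, and -0.43 over 47 without the heavy chains and Hydin, whose longest transcripts measure 12009 to 16685 bases. This correlation is across genes of the same 6 libraries, which are not independent replicates.

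**Figure D1:**
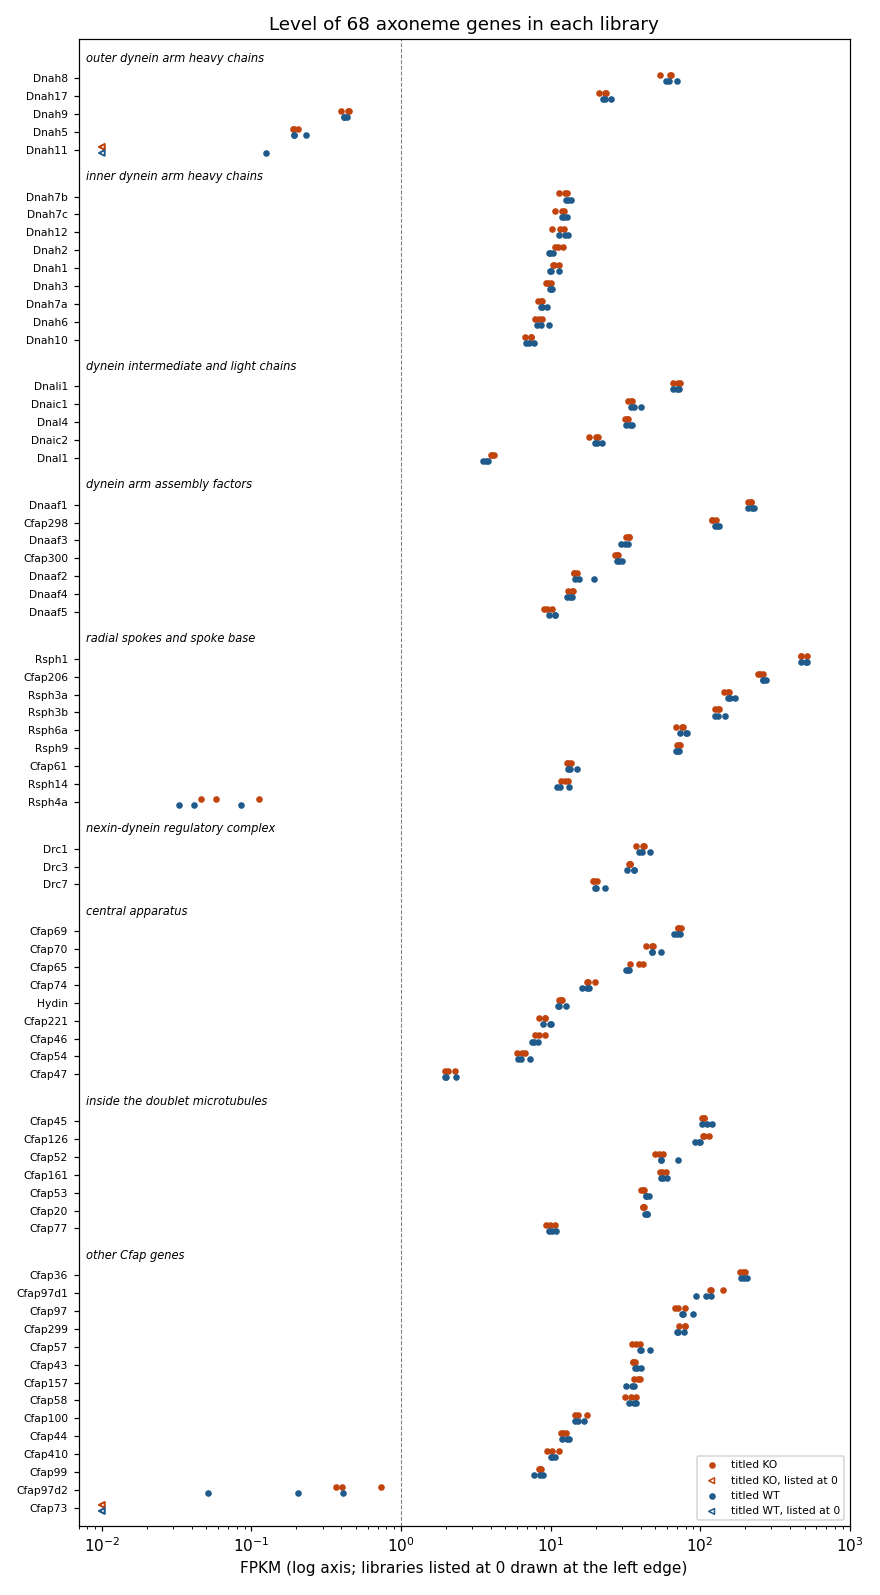
Level of each of the 68 genes in each library (FPKM, log axis), grouped by role, with libraries titled KO and titled WT in different colours, values listed at 0 as open triangles at the left edge, and a dashed line at 1 FPKM. The libraries of the 2 groups lie close together for nearly every gene, while the genes span from Rsph1 near 496 FPKM to Cfap73 at 0.

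Radial spoke genes held the highest level of the set. Rsph1, a spoke head protein (chr17:31255019-31277383, minus strand), had 476, 475 and 521 FPKM in libraries titled KO and 473, 521 and 513 FPKM in libraries titled WT. It stood above 99.4% of tested genes by mean level. The groups interleave, and its log2 fold change was -0.034 (95% interval -0.16 to 0.09, limma adjusted p = 0.777). Cfap206, a protein at the spoke base needed for a normal sperm tail in mice, came next with 263, 251.1 and 244 FPKM in libraries titled KO and 263, 277 and 262 FPKM in libraries titled WT. The titled KO values reach just above the lowest titled WT values, and the log2 fold change was -0.08 (limma adjusted p = 0.459).

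The stalk genes Rsph3a and Rsph3b kept nearly the same ratio. Rsph3a had 156, 145 and 153 FPKM in libraries titled KO and 153, 171 and 157 FPKM in libraries titled WT. Rsph3b had 132, 126 and 133 FPKM in libraries titled KO and 126, 146 and 133 FPKM in libraries titled WT. The ratio of Rsph3a to Rsph3b was 1.149 to 1.18 in libraries titled KO and 1.17 to 1.21 in libraries titled WT, and given the 99.2% identity above it may carry the authors' way of splitting shared reads.

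The spoke head has a sperm form and a cilia form, and the testis libraries hold them at far different levels. Rsph6a, the head protein of sperm, had 76.8, 69.3 and 75.2 FPKM in libraries titled KO and 73.0, 81.2 and 80.3 FPKM in libraries titled WT. Rsph4a, its counterpart in motile cilia, had 0.058, 0.112 and 0.046 FPKM in libraries titled KO and 0.085, 0.041 and 0.033 FPKM in libraries titled WT. Within a library Rsph6a was 618 to 1622 times Rsph4a among those titled KO, and 856 to 2443 times among those titled WT. Rsph4a lay near the floor, so these ratios are loose. Rsph9, a head protein that both forms share, averaged 72.1 ± 1.45 FPKM in libraries titled KO and 70.5 ± 1.91 FPKM in libraries titled WT (SD, n = 3 each). Rsph14 averaged 12.5 ± 0.60 FPKM in libraries titled KO and 11.98 ± 1.196 FPKM in libraries titled WT (SD, n = 3 each). Cfap61, of the complex at the spoke base, averaged 13.3 ± 0.40 FPKM in libraries titled KO and 13.9 ± 0.97 FPKM in libraries titled WT (SD, n = 3 each).

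The outer arm heavy chains show the same division. Dnah8, the sperm form (chr17:30624354-30877365, plus strand), had 63.7, 54.1 and 62.5 FPKM in libraries titled KO and 62.2, 69.6 and 59.5 FPKM in libraries titled WT. Dnah5, its counterpart in motile cilia, had 0.205, 0.193 and 0.190 FPKM in libraries titled KO and 0.192, 0.232 and 0.192 FPKM in libraries titled WT. Dnah8 was thus 281 to 329 times Dnah5 in libraries titled KO and 300 to 325 times in libraries titled WT.

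Dnah17, the other sperm outer arm chain, had 23.4, 21.0 and 23.0 FPKM in libraries titled KO and 23.1, 25.2 and 22.6 FPKM in libraries titled WT. Dnah9, its counterpart in cilia, had 0.400, 0.449 and 0.445 FPKM in libraries titled KO and 0.436, 0.413 and 0.417 FPKM in libraries titled WT, so that Dnah17 was 46.9 to 58.4 times Dnah9 in libraries titled KO and 52.9 to 61.0 times in libraries titled WT. Dnah11, a chain of cilia, was listed at 0 in 5 libraries, where a floor of 3 fragments equals 0.00542 to 0.00774 FPKM, and at 0.125 FPKM in titled WT replicate 2. The pair that makes the sperm outer arm kept a ratio of Dnah8 to Dnah17 of 2.57 to 2.73 in libraries titled KO and of 2.64 to 2.76 in libraries titled WT.

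The 9 inner arm heavy chains had means from 7.21 FPKM (Dnah10) to 12.8 FPKM (Dnah7b), a narrow band next to the spread of the whole set. Dnah2 and Dnah10 are the heavy chains of inner arm f. Dnah10 had 7.39, 6.75 and 7.355 FPKM in libraries titled KO and 7.13, 7.70 and 6.90 FPKM in libraries titled WT. Its groups interleave, and its difference was -0.014 on the log2 scale (adjusted p = 0.931 in limma). Dnah7b was 1.39 to 1.501 times Dnah7a in libraries titled KO and 1.46 to 1.48 times in libraries titled WT. Dnah7c was 1.31 to 1.43 times Dnah7a in libraries titled KO and 1.37 to 1.39 times in libraries titled WT. Their log2 fold changes were -0.065 (Dnah7a), -0.09 (Dnah7b) and -0.09 (Dnah7c), and limma called none of the 3. The remaining inner arm chains, Dnah1, Dnah3, Dnah6 and Dnah12, had means between 8.61 and 11.9 FPKM.

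Among the smaller dynein subunits Dnali1, the light intermediate chain of inner arms, was the highest at 69.8 ± 3.62 FPKM in libraries titled KO and 69.4 ± 3.46 FPKM in libraries titled WT (SD, n = 3 each). The outer arm intermediate chain Dnaic1 averaged 34.2 ± 1.10 FPKM in libraries titled KO and 36.9 ± 2.84 FPKM in libraries titled WT (SD, n = 3 each). Its partner Dnaic2 averaged 19.7 ± 1.38 FPKM in libraries titled KO and 20.8 ± 1.16 FPKM in libraries titled WT (SD, n = 3 each), and the light chain Dnal4 had a mean of 32.9 FPKM over the 6 libraries. Dnal1, a light chain that sits on an outer arm heavy chain, was the lowest, with 3.98, 4.19 and 4.06 FPKM in libraries titled KO and 3.55, 3.805 and 3.68 FPKM in libraries titled WT. All 3 titled KO values of Dnal1 lay above all 3 titled WT values, yet limma did not call it (log2 fold change 0.12, adjusted p = 0.405). The exons of Pnma1 on the opposite strand cover 5.53% of its exon bases. With no strand setting given, it is not known whether the authors' counting told the reads of such pairs apart.

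The assembly factors reached high levels as well. Dnaaf1, a leucine-rich repeat factor, had 218, 210.5 and 219 FPKM in libraries titled KO and 208, 229 and 224 FPKM in libraries titled WT. Its log2 fold change was -0.027 (limma adjusted p = 0.805). Cfap298 had 119.9, 121 and 128 FPKM in libraries titled KO and 126, 135 and 129.7 FPKM in libraries titled WT. Dnaaf2, a co-chaperone also called kintoun, had 14.4, 14.3 and 14.9 FPKM in libraries titled KO and 14.6, 19.4 and 15.6 FPKM in libraries titled WT. Titled WT replicate 2 stands above the other 5 in Dnaaf2, whose log2 fold change of -0.16 was the lowest of the set (limma adjusted p = 0.437). Leaving out titled WT replicate 2 gave -0.049. Dnaaf5 averaged 9.60 ± 0.61 FPKM in libraries titled KO and 10.4 ± 0.57 FPKM in libraries titled WT (SD, n = 3 each). The other assembly factors, Dnaaf3, Dnaaf4 and Cfap300, had means of 32.2, 13.6 and 28.3 FPKM over the 6 libraries. Other genes on the opposite strand cover 44.2% of the exon bases of Cfap298 (Gm49727), 32.7% of those of Dnaaf2 (9330151L19Rik) and 20.7% of those of Dnaaf1 (Taf1c), so these values may hold reads of those genes.

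The 3 genes of the nexin-dynein regulatory complex had means of 41.2 FPKM (Drc1), 34.5 FPKM (Drc3) and 20.4 FPKM (Drc7). Drc1, part of its base plate, had 42.3, 37.4 and 41.2 FPKM in libraries titled KO and 40.9, 45.9 and 39.3 FPKM in libraries titled WT, with groups that interleave. The log2 fold changes of the 3 genes lay between -0.07 and -0.048, and limma called none of them.

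Of the 9 central apparatus genes Cfap69 was the highest, at 72.2 ± 2.06 FPKM in libraries titled KO and 70.2 ± 2.89 FPKM in libraries titled WT (SD, n = 3 each). Hydin, the giant protein whose loss causes hydrocephalus in mice, had 11.8, 11.3 and 11.96 FPKM in libraries titled KO and 11.2, 12.6 and 11.3 FPKM in libraries titled WT. Cfap47 on the X chromosome (chrX:79266558-79517351) was the lowest tested member, with 2.31, 2.06 and 1.97 FPKM in libraries titled KO and 1.99, 2.33 and 1.98 FPKM in libraries titled WT. Its groups interleave and its log2 fold change was 0.0064 (limma adjusted p = 0.973), while 75 of the 527 tested X-linked genes were called higher (14.2%). Cfap70 averaged 46.3 ± 2.69 FPKM in libraries titled KO and 49.95 ± 3.91 FPKM in libraries titled WT (SD, n = 3 each). Cfap46, Cfap54, Cfap74 and Cfap221, which share a projection of the central apparatus, had means of 8.15, 6.47, 17.9 and 9.29 FPKM over the 6 libraries.

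Among the 7 proteins inside the doublet microtubules Cfap45 was the highest, with 103, 106 and 107 FPKM in libraries titled KO and 102, 119.9 and 111 FPKM in libraries titled WT. Cfap53 had 40.3, 41.8 and 42.1 FPKM in libraries titled KO and 43.6, 43.7 and 45.2 FPKM in libraries titled WT. Cfap20 had 41.9, 41.6 and 41.4 FPKM in libraries titled KO and 44.4, 43.9 and 42.9 FPKM in libraries titled WT. In both of these genes every titled KO library lay below every titled WT library, and limma called neither (adjusted p = 0.420 for Cfap53 and 0.510 for Cfap20). Cfap52 and Cfap161 had means of 56.7 and 56.6 FPKM over the 6 libraries. Cfap77 averaged 10.01 ± 0.72 FPKM in libraries titled KO and 10.3 ± 0.50 FPKM in libraries titled WT (SD, n = 3 each).

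The other Cfap genes ranged from 0 to 194 FPKM by their mean. Cfap36 averaged 192 ± 7.39 FPKM in libraries titled KO and 197 ± 8.875 FPKM in libraries titled WT (SD, n = 3 each), and Cfap99 averaged 8.51 ± 0.077 FPKM in libraries titled KO and 8.42 ± 0.61 FPKM in libraries titled WT. Between these lay Cfap43, Cfap44, Cfap57, Cfap58, Cfap97, Cfap100, Cfap299 and Cfap410, with means from 10.4 FPKM (Cfap410) to 76.9 FPKM (Cfap97) over the 6 libraries. Cfap97d2 was low and loose, with 0.405, 0.739 and 0.370 FPKM in libraries titled KO and 0.412, 0.051 and 0.206 FPKM in libraries titled WT. Cfap73, which in Chlamydomonas belongs to a complex at inner arm f, was listed at 0 in all 6 libraries, where 3 fragments would equal 0.0828 to 0.118 FPKM. With Dnah5, Dnah9, Dnah11 and Rsph4a these are the 6 members under 1 FPKM in every library, which the filter on low values kept out of the test. With no filter 67 members were tested, all but Cfap73, and the adjusted p of these 5 in limma lay between 0.389 and 0.950 with no filter or a filter of 0.1 FPKM.

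The comparison that the design implies asks whether losing Teshl changed these genes. No member was called. At an adjusted p under 0.05 (limma on log2(FPKM + 1), 12952 genes), 0 of 62 tested members were higher and 0 were lower in libraries titled KO, where 0.788% and 0.363% of all tested genes were called higher and lower, and 1.15% in either direction. The smallest adjusted p of a member was 0.251. At an unadjusted p under 0.05, 4 members were higher and 0 lower, where 5.38% and 8.89% of all tested genes were. Groups did not overlap for 7 members (21.7% of all tested genes), 5 with all libraries titled KO above (5.92% of all tested genes) and 2 with all below (15.8% of all tested genes).

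The intervals show how large a change these libraries leave room for. The 95% interval of the fold change lay inside 1.25-fold in either direction for 56 of the 62 members (90.3%), against 74.3% of all tested genes. It lay inside 1.5-fold for all 62, against 94.9% of all tested genes. The outermost bounds were 0.762-fold for Cfap52, a protein inside the doublets, and 1.39-fold for Cfap97d1. Standard errors of the log2 fold change had a median of 0.065 over the members and of 0.073 over all tested genes. These intervals are for single genes, with no adjustment for their number, and on this scale they understate the room left for genes of low level.

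**Figure D2:**
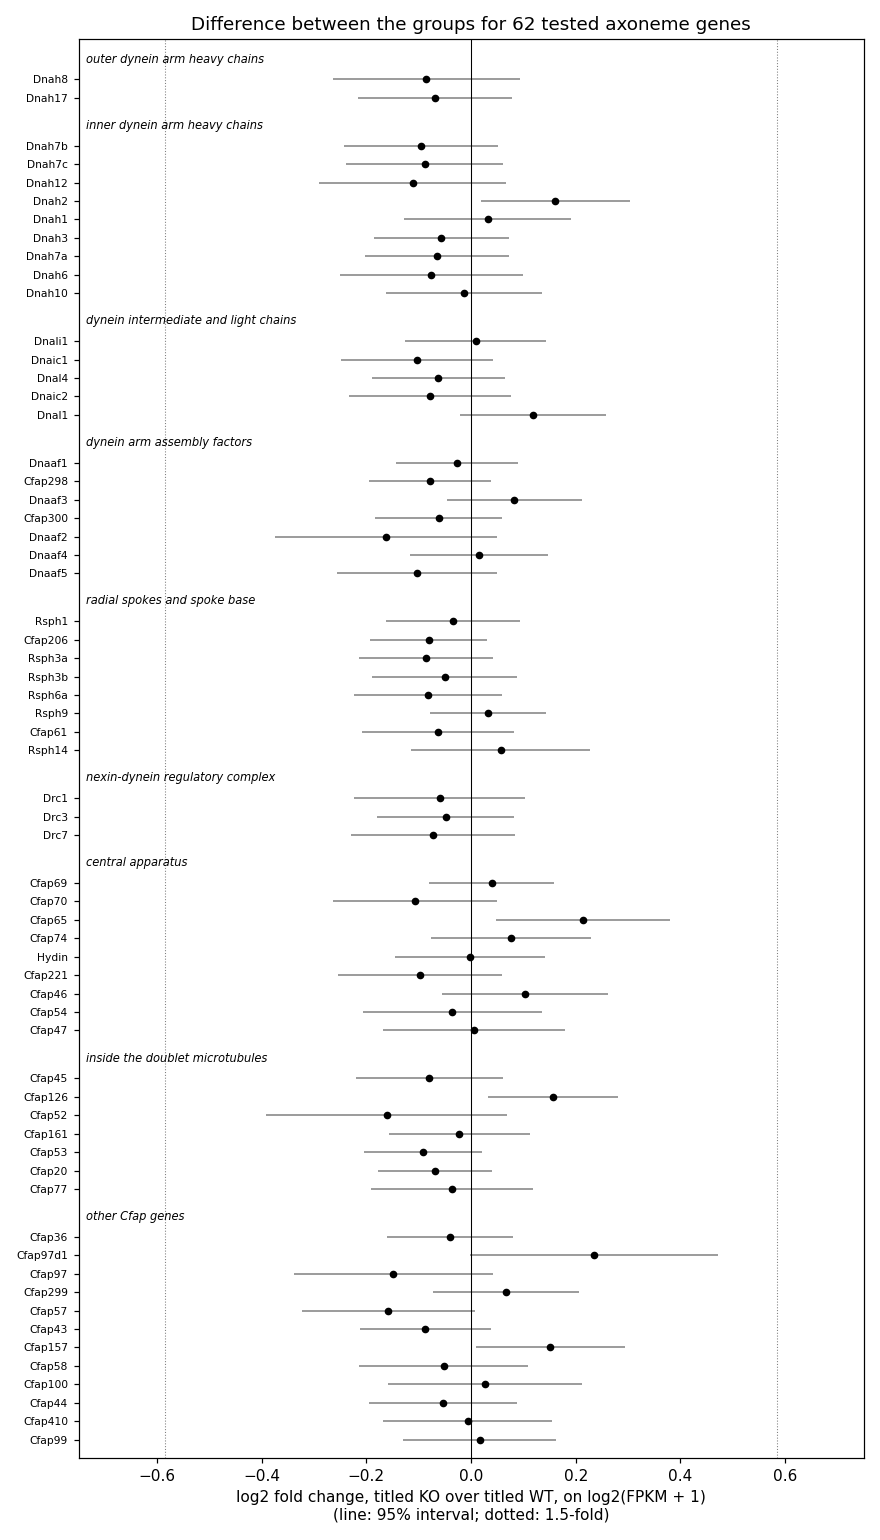
Log2 fold change, titled KO minus titled WT, of the 62 tested genes with 95% intervals, grouped by role; dotted lines mark 1.5-fold in either direction. Every interval stays between the dotted lines, and the point estimates run from -0.16 for Dnaaf2 to 0.24 for Cfap97d1.

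The median log2 fold change of the members was -0.054, against -0.043 over all tested genes, and 43 of the 62 were below 0 (69.4%, against 65.7% of all tested genes). By role, the median lay between -0.08 for the 2 tested outer arm heavy chains and 0.0064 for the 9 central apparatus genes. Summed FPKM of the spoke genes averaged 1196 ± 28.6 in libraries titled KO and 1240 ± 55.0 in libraries titled WT (SD, n = 3 each). The outer arm heavy chains summed to 83.2 ± 6.49 FPKM in libraries titled KO and 88.1 ± 6.72 FPKM in libraries titled WT, a ratio of 0.944 that was the lowest of the 9 roles. The central apparatus genes summed to 213 ± 5.94 FPKM in libraries titled KO and 208 ± 8.84 FPKM in libraries titled WT, a ratio of 1.02 that was the highest. In each of these sums the libraries of the 2 groups overlap.

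The members with the smallest p were Cfap65, Cfap126, Dnah2 and Cfap157, all higher on average in libraries titled KO. Cfap65, a central apparatus protein needed for the sperm tail (chr1:74902071-74935599, minus strand), had 34.1, 38.9 and 41.8 FPKM in libraries titled KO and 31.8, 33.2 and 33.4 FPKM in libraries titled WT. All libraries titled KO lay above all titled WT, with titled KO replicate 1 close to the titled WT values. Its difference was 0.21 on the log2 scale (SE 0.074, 95% interval 0.047 to 0.38, limma adjusted p = 0.251).

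Cfap126, also called Flattop and placed inside the doublets (chr1:171113918-171126967, plus strand), had 104, 114 and 106 FPKM in libraries titled KO and 97.9, 92.6 and 99.5 FPKM in libraries titled WT. Its difference was 0.16 on the log2 scale (SE 0.055, 95% interval 0.032 to 0.28, limma adjusted p = 0.257). Dnah2 (chr11:69420809-69549110, minus strand) had 11.3, 10.7 and 12.1 FPKM in libraries titled KO and 9.88, 10.5 and 9.76 FPKM in libraries titled WT. The difference was 0.16 on the log2 scale (SE 0.064, adjusted p = 0.297 in limma), and its partner Dnah10 stood at -0.014.

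Cfap157, a sperm tail protein of mice (chr2:32777381-32784428, minus strand), had 36.3, 38.6 and 39.8 FPKM in libraries titled KO and 36.0, 31.9 and 35.1 FPKM in libraries titled WT. The lowest titled KO library and the highest titled WT library nearly touch. The difference was 0.15 on the log2 scale (SE 0.064, adjusted p = 0.325 in limma).

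**Figure D3:**
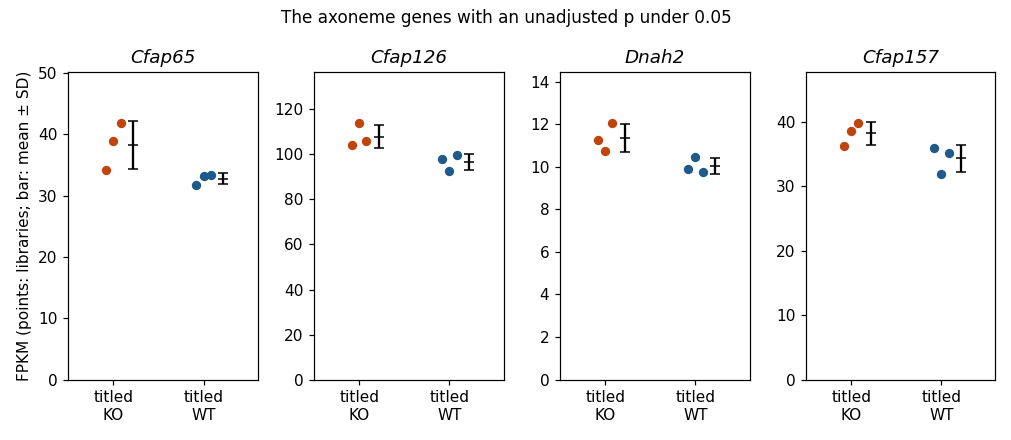
FPKM of Cfap65, Cfap126, Dnah2 and Cfap157 in each library, titled KO left of titled WT, with the mean and SD of each group of 3. All titled KO points lie above all titled WT points in each panel, with a narrow gap in Cfap65, Dnah2 and Cfap157.

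The largest fold change belonged to Cfap97d1, which mice need for normal sperm tails (chr11:101984279-101992264, plus strand). It had 119, 143 and 116 FPKM in libraries titled KO and 109, 93.8 and 118 FPKM in libraries titled WT. The groups overlap, since titled WT replicate 3 exceeded titled KO replicate 3. That is 0.24 on the log2 scale (SE 0.10, 95% interval -0.0014 to 0.47, limma adjusted p = 0.353). Leaving out titled KO replicate 2 gave 0.14, and leaving out titled WT replicate 2 gave 0.15, so that either library moves it by more than 1.5 times.

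Some libraries stood apart within their own group in these genes. Titled WT replicate 2 was the highest library for 38 of the 62 members (61.3%, against 36.7% of all tested genes) and for 10 of the 11 tested heavy chains. Titled KO replicate 2 was the lowest for 25 of the 62 (40.3%, against 30.1% of all tested genes) and for 8 of the 11 heavy chains. The exception among the heavy chains in titled WT replicate 2 was Dnah2. Members summed to 3336, 3317 and 3398 FPKM in libraries titled KO and 3283, 3542 and 3440 FPKM in libraries titled WT, so titled WT holds both the highest and the lowest sum. Without titled WT replicate 2 the median log2 fold change of the members was -0.021, and without titled WT replicate 1 it was -0.08.

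Over all tested genes this library pattern followed the order of transcript length, with the largest step between the shortest genes and the rest. Among the members length did not order it throughout. The median log2 deviation from the gene's mean over libraries was -0.11 in titled KO replicate 2 and 0.10 in titled WT replicate 2 for the 11 heavy chains. Over all 267 tested genes with a longest transcript of at least 10000 bases it was -0.055 in titled KO replicate 2 and 0.061 in titled WT replicate 2, and over 3732 genes under 2000 bases it was 0.016 in titled KO replicate 2 and -0.0030 in titled WT replicate 2. In titled WT replicate 2 it was 0.056 over 6481 genes of 2000 to 5000 bases and 0.061 over 2154 genes of 5000 to 10000 bases, much as in the longest genes. Over the same length ranges in titled KO replicate 2 it was -0.038 and -0.049. Among the members it was 0.096 in titled WT replicate 2 for the 28 of 2000 to 5000 bases and 0.026 for the 7 of 5000 to 10000 bases. The part of transcript length in the members' values was not tested.

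**Figure D4:**
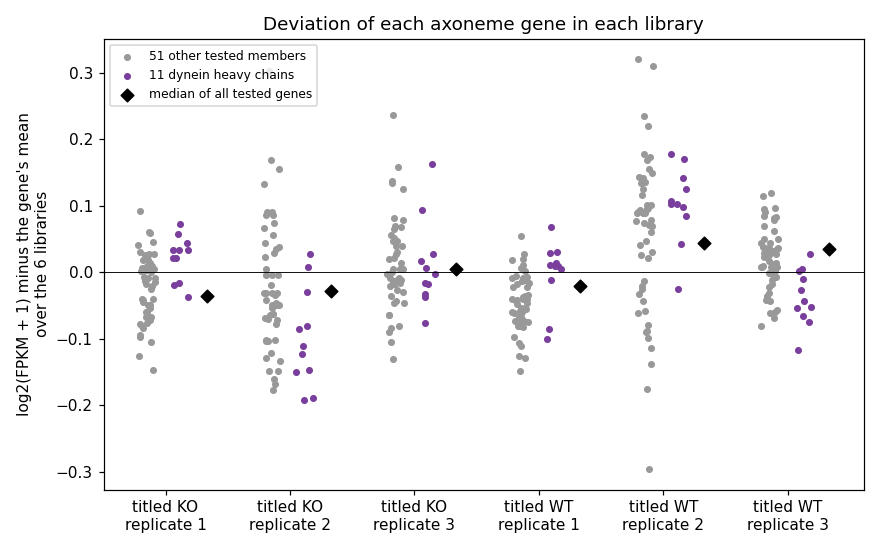
Log2 deviation of each tested gene from its mean over the 6 libraries, by library, with the 11 dynein heavy chains in purple, the 51 other members in grey and the median of all tested genes as a diamond. Heavy chains sit low in titled KO replicate 2 and high in titled WT replicate 2, with medians of -0.11 and 0.10.

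Other genes of the axoneme that carry other names were listed as 72 symbols, of which 61 were in the tables and 59 were tested. Of these 59, limma called 0 higher and 0 lower, and 1 was higher and 2 were lower at an unadjusted p under 0.05. They summed to 4499 to 4724 FPKM in libraries titled KO and 4488 to 4755 FPKM in libraries titled WT, with a median log2 fold change of -0.032. The smallest p belonged to Spag1, a dynein assembly factor, at -0.23 on the log2 scale (adjusted p = 0.190 in limma). Iqcd of the nexin-dynein regulatory complex followed at -0.12 (limma adjusted p = 0.329), and Pih1d2, a relative of assembly factors, at 0.14 (limma adjusted p = 0.344). A list of cytoplasmic dynein subunits, light chains included, gave 0 calls among 17 tested, with a median log2 fold change of -0.10. It summed to 1653 to 1746 FPKM in libraries titled KO and 1724 to 1967 FPKM in libraries titled WT. Of these 17, an unadjusted p under 0.05 was reached by 2 higher and 2 lower genes. Dync1li1 stood at -0.20, Dynlt1c at -0.17, Dynll2 at 0.16 and Dynlt3 at 0.24 on the log2 scale, with limma adjusted p of 0.222, 0.244, 0.245 and 0.248. Regulators of cilia genes gave 0 calls among 10 tested. Rfx2 stood at a log2 fold change of -0.12 (adjusted p = 0.296 in limma), Rfx1 at 0.12 (adjusted p = 0.392), and Foxj1, the regulator of motile cilia, had 24.5 to 25.8 FPKM in libraries titled KO and 25.9 to 32.8 FPKM in libraries titled WT (limma adjusted p = 0.396).

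Marker sums of elongating spermatids, given above, were higher in every library titled KO than in any titled WT, with 0 of 10 genes called and a median log2 fold change of 0.062. Prm1, Prm2, Tnp1 and Tnp2 made up most of these sums, averaging 10218, 8837, 5397 and 6615 FPKM in libraries titled KO. In libraries titled WT they averaged 8608, 7733, 5110 and 5207 FPKM. On the log2 scale Akap4 stood at 0.13, Oaz3 at 0.042, Gapdhs at 0.037, Hook1 at 0.0016, and Odf1 and Smcp at -0.035. Round spermatid markers summed to 795 to 984 FPKM in libraries titled KO and 764 to 901 FPKM in libraries titled WT, and spermatocyte markers to 429 to 454 FPKM in libraries titled KO and 432 to 452 FPKM in libraries titled WT, both with groups that overlap. Spermatogonial markers summed to 76.3 to 85.9 FPKM in libraries titled KO and 87.3 to 94.9 FPKM in libraries titled WT, with 0 of 7 tested genes called. Sertoli markers summed to 425 to 472 FPKM in libraries titled KO and 450 to 505 FPKM in libraries titled WT, and Leydig markers to 1574 to 1804 FPKM in libraries titled KO and 1744 to 1811 FPKM in libraries titled WT. Peritubular markers summed to 196 to 199.8 FPKM in libraries titled KO and 178 to 194 FPKM in libraries titled WT. Most of that sum was Actg2, at 142 FPKM on average in libraries titled KO and 122 FPKM in libraries titled WT, while 5 of the 7 tested peritubular markers had negative log2 fold changes and their median was -0.13. Macrophage and blood markers summed to 65.1 to 99.2 FPKM in libraries titled KO and 73.9 to 96.0 FPKM in libraries titled WT. Over all marker lists 1 gene was called, the smooth muscle gene Myl9 (log2 fold change -0.28, limma adjusted p = 0.0475), and with any 1 of the 6 libraries left out it was no longer called (adjusted p from 0.0785 to 0.173). Multiciliated cells of the efferent ducts also build axonemes. Of the 9 measured genes in their marker list, 5 stayed under 1 FPKM in every library. Among these were Mcidas, Sntn and Cdhr3, at or below 0.0153, 0.067 and 0.0166 FPKM. Fam183b (87.6 to 139 FPKM over the 6 libraries), Deup1 (73.3 to 86.6), Foxj1 (24.5 to 32.8) and Ccno (1.16 to 1.65) were higher. The list summed to 211 to 253 FPKM in libraries titled KO and 195 to 221 FPKM in libraries titled WT. Epididymal markers summed to 259.7 to 291 FPKM in libraries titled KO and 229 to 274 FPKM in libraries titled WT, almost all of it Cst8, with Lcn5, Adam7 and Rnase9 listed at 0 in all 6 libraries. The part of cell makeup in the members' values was not tested.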

How the data were processed

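Trizol RNA of testis was made into directional NEBNext Ultra II libraries, per the labels' protocols. HISAT2 and mm10 are named in the submitters' processing notes; for the quantifier, annotation and strand setting, the sources used here give nothing. Unit labels are absent from the deposited tables, and the values were taken as FPKM, scaled for length and depth by the authors, because low values times transcript length cluster at whole multiples of a step. That spacing gave the depth.

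The design named a log-scale test for this unit, and no count test was run. Values were tested as log2(FPKM + 1) in limma 3.58.1 (R 4.3.3; trend and robust empirical Bayes) over the 12952 genes that averaged 1 FPKM or more in either group, adjusted by the Benjamini-Hochberg method at 0.05. Fold changes on this scale understate those of low genes. On simulated data of 12821 genes for this comparison, 78% of 100 genes changed by 0.5 and 96% of 100 changed by 1 (log2) were recovered, with 13 false among 187 calls. Noise was drawn from a normal distribution, and changes were planted only in genes above a minimum level. No change under 0.5 was planted, so recovery at the size of the members' differences, or in low genes, is not known.

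Members and gene lists were chosen with earlier results of these data known. Members in full are the 34 given by a rule on role, level and smallest p; Hydin, Rsph4a, Rsph6a, Rsph9, Dnah5, Dnah9, Dnah11, Cfap20, Cfap52, Cfap61, Cfap73, Cfap97d2, Dnaic2, Dynlt3, Actg2 and the genes named by level range were chosen after their values were seen. Positions are from GENCODE M21 (65 members) and RefSeq (3). Copies were found with BLAST 2.17.0. Alternatives were 2 other pseudocounts, 2 other filters, 3 other scalings, a replicate block, no robust estimation, symbols on several rows left out, and each library left out.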

Additional observations from a re-analysis of the deposited data

How the results depend on the processing

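Under each of the 16 alternatives 0 members were called higher and 0 lower, and the smallest adjusted p of a member was 0.0864 (Cfap65, without titled KO replicate 1). The median log2 fold change of the members ran from -0.077 (without titled WT replicate 1) to -0.012 (median-of-ratios scaling). Single libraries' median log2 deviation over the members had a within-group SD of 0.050. Of 544 single values over 34 members, 521 kept their direction and 23 reversed, none of them called. With equal library totals the reversed values were -0.0026 (Cfap47) and -0.0045 (Dnali1). With upper-quartile scaling they were 0.011 (Dnaaf1), 0.020 (Dnah10) and 0.0036 (Rsph1), and with median-of-ratios scaling 0.0032 (Cfap36), 0.0032 (Cfap77), 0.016 (Dnaaf1), 0.024 (Dnah10) and 0.0089 (Rsph1). Leaving out each library gave -0.038 to 0.058 for Cfap47, -0.086 to 0.0072 for Cfap77, -0.035 to 0.057 for Cfap99, -0.068 to 0.0015 for Dnaaf1, -0.044 to 0.026 for Dnah10, -0.030 to 0.050 for Dnali1, -0.105 to 0.0036 for Drc1 and -0.097 to 0.0078 for Rsph3b. The targeted gene stood at -14.89 with a pseudocount of 0.01 (adjusted p = 0.0644), and the cause was not tested. All tested genes called numbered 149; they numbered 88 with no filter, 50 with the replicate block, and 73 to 233 with each library left out. Deviations of same-numbered libraries had correlations of 0.0647, -0.129 and 0.0614, and those of differently numbered libraries ran from -0.249 to 0.197. With 3 libraries per group, whose deviations depend on one another, these values cannot settle whether the numbers pair libraries. With the replicate block 0 members were called. Depth limits Rsph4a and Cfap73, which lay near the floor or were listed at 0. Dnah11 was listed at 0 in every library but titled WT replicate 2, with floors there of 0.00542 to 0.00774 FPKM. In titled WT replicate 2 it had 0.125 FPKM, far above such floors, and the cause was not tested.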
